A study of Homo sapiens with 6 samples.

Results

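The 46 genes described here encode the proteins that license replication origins, unwind and copy DNA at the fork, and supply deoxynucleotides, together with a few regulators whose level or action is tied to S phase. They were named one by one, by role, but with earlier results of these data known. Of the 50868 genes listed in the deposited tables, 46 carried these names. RNA-seq was done on 6 samples whose labels give the cell line A549, which derives from a human lung adenocarcinoma. Of these, 3 received a scramble (NC) siRNA and carry the genotype label WT, and 3 received an siRNA against SF3B4, a subunit of the SF3b splicing complex. All samples were grown alike in RPMI medium with serum and differed, per the labels, in the siRNA and in the genotype label described below. The sources used here do not give the time after transfection, the dose or the siRNA sequence. By genotype label, SF3B4 siRNA replicate 2 is an SF3B5 knockdown and replicate 3 an SF3B6 knockdown, but both have SF3B4 in the title and the treatment label, and they were grouped by title. The titles call the replicates biological without saying whether they came from separate cultures, so p-values measure the spread between these samples.

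In G1 the origin recognition complex (ORC), CDC6 and CDT1 load the MCM2-7 ring onto DNA, which is called licensing. In S phase, CDC45 and the GINS complex join the ring to form the active helicase (CMG). Primase and DNA polymerase alpha then start each strand, replication factor C (RFC) loads the PCNA clamp, RPA covers single-stranded DNA, and FEN1 and LIG1 finish Okazaki fragments. Many of these genes are textbook targets of E2F transcription factors, which act as dimers with a DP partner and drive genes of the G1/S transition.

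Values are FPKM, a fragment count divided by gene length and library depth, so levels of different genes can be set side by side. The spacing of low values implied 17512521 to 18529756 fragments per library. The targeted gene, SF3B4, was at 88.6, 92.0 and 93.8 FPKM with control siRNA against 22.0, 17.7 and 22.3 FPKM with SF3B4 siRNA, 22.6% of control. Epithelial markers (EPCAM, KRT8, KRT18, KRT19, CDH1) summed to 1100 to 1280 FPKM in control and 1240 to 1330 FPKM in SF3B4 siRNA libraries, and most of that sum was keratin. Among them CDH1 rose from 41.2 ± 7.75 to 75 ± 12.1 FPKM (adjusted p = 0.0080) and EPCAM from 21.3 ± 3.47 to 27.2 ± 1.51 FPKM (adjusted p = 0.049, lost in 8 of 14 alternatives, 5 of which left out a library other than control replicate 1). Of 9 genes known to be high in A549, AKR1C1 and ALDH1A1 stayed under 0.1 FPKM in every library and AKR1B10 rose from 0.885 ± 0.0935 to 2.16 ± 0.151 FPKM (SD, n = 3, adjusted p = 0.00058), while NQO1 was abundant, at 174 ± 6.08 FPKM in control. VIM, of the same list, fell from 3.46 ± 0.702 to 1.54 ± 0.121 FPKM (adjusted p = 0.0021). The column headers of the deposited tables carry the name of another lung adenocarcinoma line, H1650. The samples are therefore called libraries labelled A549. Of the fibroblast, leukocyte and endothelial markers, DCN, LUM, PTPRC, CD3E, VWF and CDH5 were under 0.1 FPKM in all 6 libraries. The leukocyte list summed to 24.8 to 33.0 FPKM in control and 31.5 to 34.8 FPKM in SF3B4 siRNA libraries, nearly all of it CD68 and CD14. Of these, CD14 rose from 2.59 ± 0.239 to 5.62 ± 0.945 FPKM (adjusted p = 0.0013). The fibroblast list summed to 2.13 to 2.24 and 2.88 to 3.23 FPKM, mostly COL1A1, which rose from 1.33 ± 0.103 to 2.27 ± 0.0568 FPKM (adjusted p = 0.0023). The part of these markers in the results below was not tested.

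To show the sequence that these genes are best known to share, the starts of the members were searched for the 4 words of the E2F consensus, TTTCCCGC, TTTCGCGC, TTTGCCGC and TTTGGCGC, on both strands. The windows were the 300 bases around each start annotated in RefSeq (GRCh38.p14), and 41 of the 46 members had at least 1. At least 1 word was present in 21 of the 41 members (51.2%), against 6.69% of the 7088 tested genes that had a window and 3.99% of all 27305 genes. The words overlap in palindromes, so that 1 stretch can count on both strands. Among members that fell in SF3B4 siRNA libraries the words were present in 14 of 29, and among the other members, untested ones included, in 7 of 12. The stretches printed here are from members that fell, in order of replication step, followed by ORC3 and TIPIN, which did not pass the test. They read 5′ to 3′ on the strand of the gene, with the matched words in capitals.
CDC6 (chr17:40287856-40287923, plus strand): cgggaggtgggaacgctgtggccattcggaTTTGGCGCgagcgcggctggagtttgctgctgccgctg
CDT1 (chr16:88803724-88803791, plus strand): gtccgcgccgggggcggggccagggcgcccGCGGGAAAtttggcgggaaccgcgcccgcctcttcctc
MCM2 (chr3:127598383-127598454, plus strand): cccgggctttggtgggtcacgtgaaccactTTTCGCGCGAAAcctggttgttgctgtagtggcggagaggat
MCM6 (chr2:135876492-135876625, minus strand): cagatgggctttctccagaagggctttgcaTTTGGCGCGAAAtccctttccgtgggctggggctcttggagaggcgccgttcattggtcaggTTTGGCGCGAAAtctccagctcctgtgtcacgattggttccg
GINS1 (chr20:25407648-25407715, plus strand): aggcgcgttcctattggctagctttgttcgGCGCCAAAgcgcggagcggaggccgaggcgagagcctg
RFC3 (chr13:33818064-33818131, plus strand): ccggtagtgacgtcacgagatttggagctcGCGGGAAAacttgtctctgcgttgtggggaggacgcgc
PCNA (chr20:5126644-5126711, minus strand): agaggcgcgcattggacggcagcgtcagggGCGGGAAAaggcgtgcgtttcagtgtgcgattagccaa
TYMS (chr18:657584-657651, plus strand): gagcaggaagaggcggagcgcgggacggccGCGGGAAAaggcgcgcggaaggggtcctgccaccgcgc
DTL (chr1:212035710-212035777, plus strand): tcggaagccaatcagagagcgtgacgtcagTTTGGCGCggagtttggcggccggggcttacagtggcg
ORC3 (chr6:87590093-87590160, plus strand): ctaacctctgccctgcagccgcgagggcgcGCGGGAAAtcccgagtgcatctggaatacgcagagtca
TIPIN (chr15:66356710-66356781, minus strand): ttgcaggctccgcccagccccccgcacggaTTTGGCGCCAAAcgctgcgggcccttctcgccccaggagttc

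MCM2 holds the palindrome TTTCGCGCGAAA and MCM6 holds TTTGGCGCGAAA at 2 places, while TIPIN holds TTTGGCGCCAAA. A match describes these letters and not a bound site. Outside the members, tested genes with an E2F word fell in 107 of 455 cases (23.5%) and rose in 53 (11.6%), with a median log2 fold change of -0.08, against falls in 17.7% and rises in 17.0% of 6596 genes with a window and no word, whose median was 0.00. Within the members the order was the reverse. Tested members with a word fell in 14 of 19 cases (73.7%, median -0.57), and those with a window and no word in 15 of 18 (83.3%, median -0.71). The word TTTGAA, the core of the cell cycle homology region known from late cell cycle genes, was present in 2 of 41 members and in 11.4% of tested genes with a window. CCAAT was present in 26 of 41 members (63.4%) and 42.8% of those tested genes.

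Most of the replication genes were lower in the SF3B4 siRNA libraries. Of the 41 members that reached 1 FPKM in at least 3 libraries and were tested, 31 fell and 0 rose by limma at an adjusted p of 0.05 over all 9685 tested genes, and 10 did not pass. Of all tested genes, 18.1% fell and 16.0% rose by the same rule. The median log2 fold change of the 41 members was -0.59, against -0.004 over all tested genes. Counting all 46, the mean was lower after SF3B4 siRNA in 42, and in 37 every SF3B4 siRNA library lay below every control library. Such separation downward was found in 34 of the 41 tested members and in 25.7% of all tested genes. PRIM1 and RFC1 entered the test through their control libraries alone, since each of their SF3B4 siRNA values was under 1 FPKM. In bulk RNA, fewer cells in S phase and less of these transcripts per cell cannot be told apart. Levels of the genes that fell came to between 36.7% and 78.1% of control. In 36 of the 46 members SF3B4 siRNA replicate 2 had the lowest value of its group, and so it did in 26 of the 31 that fell (83.9%), whereas it was lowest in 38.6% of all tested genes. Control replicate 1 had the highest value of its group in 22 of the 31 that fell (71.0%), against 43.0% of all tested genes. Without SF3B4 siRNA replicate 2, 28 of 41 members fell, and without control replicate 1, 29 did, with a median of -0.57 in either case.

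**Figure D1:**
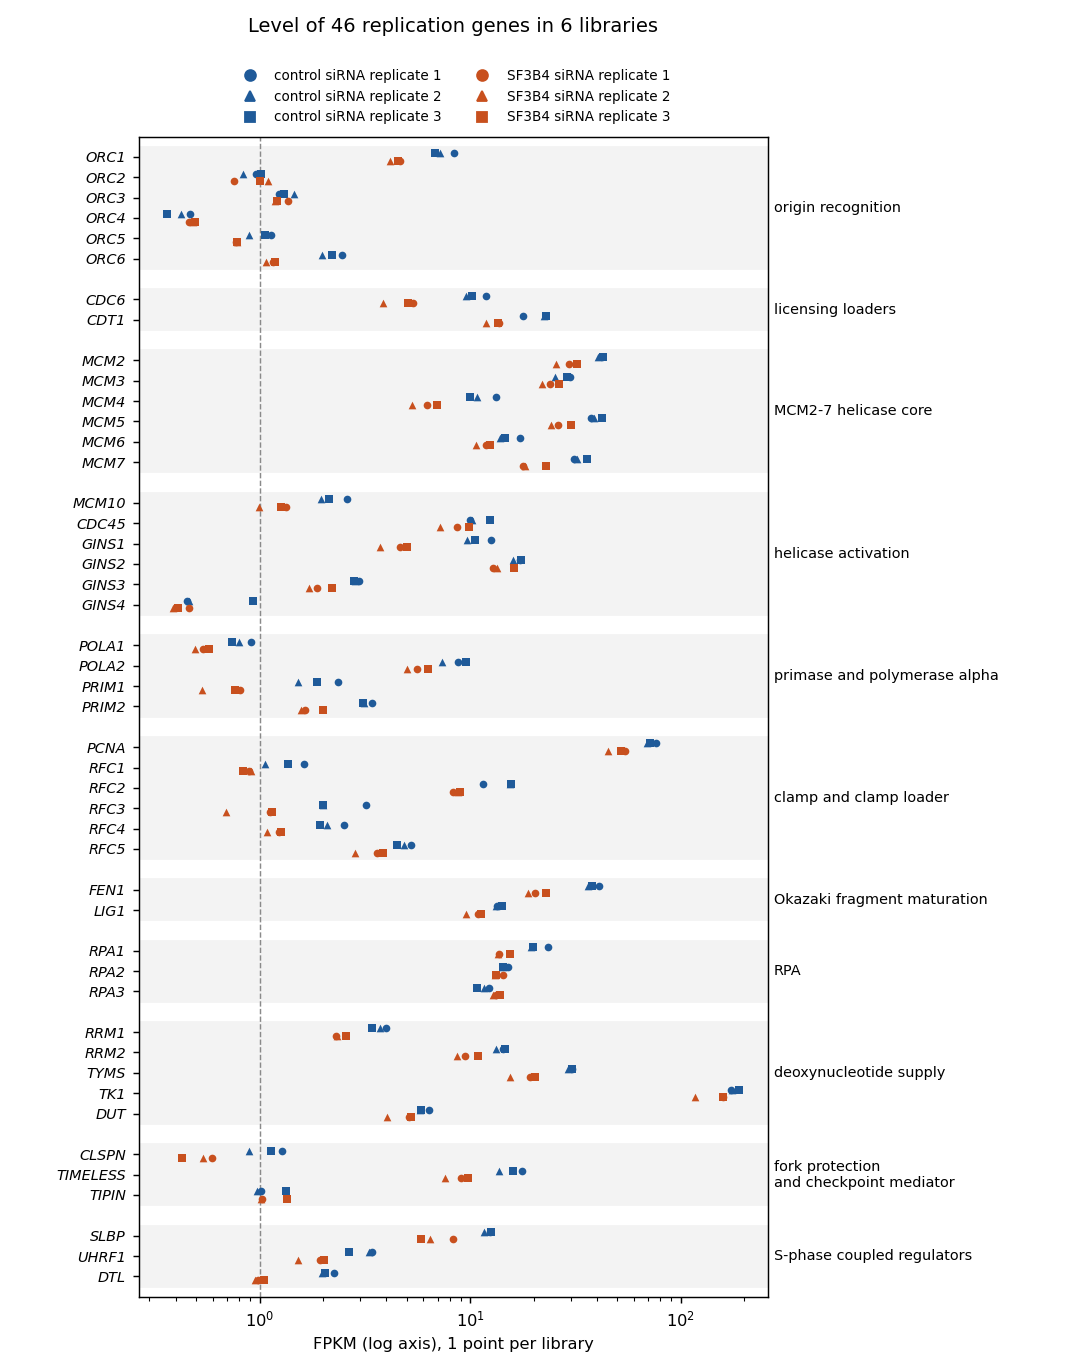
Level of each of the 46 genes in FPKM on a log axis, grouped by replication step, with 1 point per library, blue for control siRNA and orange for SF3B4 siRNA, the marker shape giving the replicate and the dashed line marking 1 FPKM. In 37 genes all 3 orange points lie left of all 3 blue points, and in RPA3 they lie to the right.

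Within the origin recognition complex, only the subunits ORC1 and ORC6 passed the test, and both were lower. ORC1, the largest subunit and an AAA+ ATPase, was at 8.39, 7.16 and 6.82 FPKM in control and at 4.65, 4.18 and 4.55 FPKM in SF3B4 siRNA libraries (log2 fold change -0.72 ± 0.10, SE, adjusted p = 0.0020). ORC6, the smallest subunit, was at 2.47, 1.98 and 2.20 FPKM against 1.16, 1.07 and 1.18 FPKM (-0.90 ± 0.12, adjusted p = 0.0016). The groups did not overlap in either gene. ORC2 and ORC3, which belong to the core of the complex, had overlapping groups at 0.939 and 0.955 FPKM and at 1.33 and 1.26 FPKM, with 95% intervals of the log2 fold change of -0.39 to 0.41 and -0.36 to 0.22. These levels rested on few reads, about 77 to 116.5 fragments per library for ORC2 and 79.7 to 94.8 for ORC3. ORC4 and ORC5, both ATPases of the same family, were too low to be tested, at 0.418 ± 0.0509 and 0.478 ± 0.0164 FPKM and at 1.03 ± 0.122 and 0.777 ± 0.0045 FPKM. In ORC5 every SF3B4 siRNA library was below every control library. The level of ORC1 relative to ORC3 was 5.65 ± 0.961 in control and 3.55 ± 0.181 in SF3B4 siRNA libraries, without overlap. This and the other ratios of 2 members given below were picked after the values were seen, and each ratio without overlap had a two-sided exact permutation p of 0.1, the smallest that 3 against 3 libraries allow.

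The licensing loaders CDC6 and CDT1 both fell. CDC6, the ATPase that brings MCM2-7 to ORC, was at 11.9, 9.53 and 10.2 FPKM in control and at 5.33, 3.84 and 5.09 FPKM in SF3B4 siRNA libraries (-1.14 ± 0.15, adjusted p = 0.0012). CDT1, which escorts MCM2-7 and is destroyed in S phase, was at 17.8, 22.4 and 22.9 FPKM against 13.7, 11.9 and 13.6 FPKM (-0.68 ± 0.11, adjusted p = 0.0038). The lowest control library of either gene was above its highest SF3B4 siRNA library.

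Of the 6 subunits of the MCM2-7 ring, 5 fell and MCM3 did not pass. Their summed level was 161 to 175 FPKM in control and 106 to 131 FPKM in SF3B4 siRNA libraries. MCM4 was at 13.3, 10.8 and 9.96 FPKM in control and at 6.22, 5.28 and 6.98 FPKM in SF3B4 siRNA libraries (-0.87 ± 0.14, adjusted p = 0.0031). MCM7 was at 31.3, 32.2 and 36.0 FPKM against 17.8, 18.2 and 22.9 FPKM (-0.76 ± 0.11, adjusted p = 0.0020). Both are ring subunits with an ATPase domain, and neither showed overlap between the groups. MCM5 (39.5 ± 2.55 to 26.8 ± 3.12 FPKM) and MCM2 (41.9 ± 1.22 to 29.1 ± 3.17 FPKM), which meet at the gate through which DNA enters the ring, fell by 0.56 and 0.53 on the log2 scale (adjusted p = 0.0040 and 0.0035). MCM6 fell by 0.39, from 15.3 ± 1.74 to 11.7 ± 0.844 FPKM (adjusted p = 0.022). MCM3 was at 29.8, 25.4 and 28.7 FPKM against 23.9, 22.0 and 26.3 FPKM and did not pass (95% interval -0.43 to 0.00, adjusted p = 0.11). One SF3B4 siRNA value of MCM3 was above its lowest control value. The ratio of MCM4 to MCM3 was 0.406 ± 0.0515 in control and 0.255 ± 0.0134 in SF3B4 siRNA libraries, and MCM2 and MCM4 were the highest and the lowest subunit in all 6 libraries. The MCM6 call was lost without SF3B4 siRNA replicate 1 or 2 (adjusted p = 0.051 and 0.071) and with no filter (0.066). In MCM2, 23.6% of the exonic bases overlap other genes of GENCODE 29, mostly AC023593.1 on the opposite strand, which has no value in these data. The sources used here do not give the strand setting.

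**Figure D2:**
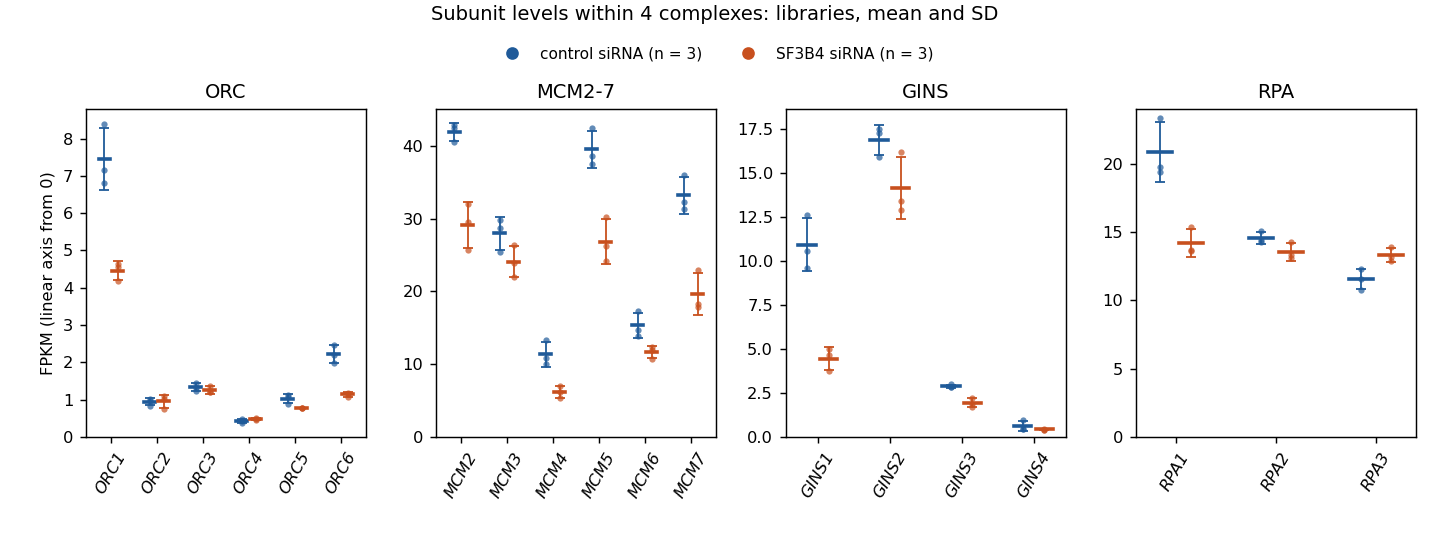
FPKM of each subunit of ORC, MCM2-7, GINS and RPA on linear axes from 0, with a point per library, a bar at the mean of 3 libraries and whiskers of 1 SD. ORC1, ORC6 and the untested ORC5 separate by group while ORC2 and ORC3 do not, and RPA1 comes down to the level of RPA2 and RPA3.

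Among the factors that turn the loaded ring into an active helicase, GINS1, MCM10 and GINS3 fell, and GINS2 and CDC45 did not pass. GINS1, a subunit of the 4-part GINS complex, was at 12.6, 9.63 and 10.6 FPKM in control and at 4.63, 3.72 and 5.01 FPKM in SF3B4 siRNA libraries (-1.28 ± 0.14, adjusted p = 0.00067). MCM10, which is needed to start unwinding, was at 2.60, 1.95 and 2.13 FPKM against 1.33, 0.994 and 1.27 FPKM (-0.84 ± 0.16, adjusted p = 0.0057). GINS3 was at 2.98, 2.85 and 2.82 FPKM against 1.87, 1.71 and 2.21 FPKM (-0.57 ± 0.12, adjusted p = 0.0095). In these 3 genes every SF3B4 siRNA library was below every control library. CDC45, the helicase cofactor that travels with the ring, was at 10.0, 10.2 and 12.4 FPKM against 8.68, 7.20 and 9.91 FPKM (95% interval of the log2 fold change -0.66 to -0.03, adjusted p = 0.088). GINS2 was at 17.3, 15.9 and 17.5 FPKM against 12.9, 13.4 and 16.2 FPKM (95% interval -0.50 to -0.03, adjusted p = 0.080), and GINS4 was too low to be tested, at 0.615 ± 0.273 and 0.419 ± 0.0376 FPKM. The ratio of GINS1 to GINS2 was 0.646 ± 0.0699 in control and 0.316 ± 0.0413 in SF3B4 siRNA libraries, without overlap. Without SF3B4 siRNA replicate 3, both CDC45 and GINS2 passed (adjusted p = 0.048 and 0.026), and CDC45 also passed with the replicate block (adjusted p = 0.044).

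All 3 tested subunits of the polymerase alpha and primase complex fell, and the fourth was too low to be tested. PRIM1, the catalytic primase subunit, was at 2.36, 1.52 and 1.87 FPKM in control and at 0.810, 0.535 and 0.766 FPKM in SF3B4 siRNA libraries (-1.32 ± 0.21, adjusted p = 0.0027). These were few reads, about 65.7 to 104.9 fragments per control library and 23.6 to 34.6 per SF3B4 siRNA library over its exonic length. PRIM2, the large primase subunit, was at 3.43, 3.14 and 3.09 FPKM against 1.64, 1.57 and 1.99 FPKM (-0.86 ± 0.12, adjusted p = 0.0017). POLA2, the regulatory subunit of the polymerase, was at 8.73, 7.37 and 9.58 FPKM against 5.58, 5.02 and 6.34 FPKM (-0.59 ± 0.13, adjusted p = 0.010). POLA1, the catalytic subunit, was at 0.907, 0.800 and 0.741 FPKM against 0.536, 0.491 and 0.573 FPKM, also without overlap. Other genes share 35.1% of the exonic bases of POLA2 and 21.6% of those of PRIM1, largely on the same strand, so both levels are uncertain.

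The clamp and all 5 subunits of its loader fell. PCNA, the ring that tethers polymerases to DNA, was at 76.1, 69.5 and 71.4 FPKM in control and at 54.1, 45 and 52.0 FPKM in SF3B4 siRNA libraries (-0.52 ± 0.08, adjusted p = 0.0029). RFC3 was at 3.20, 1.99 and 2.01 FPKM against 1.12, 0.691 and 1.15 FPKM (-1.19 ± 0.25, adjusted p = 0.0087). Its level rested on about 101.4 to 167.6 fragments per control library and 36 to 61.3 per SF3B4 siRNA library. RFC4 was at 2.53, 2.08 and 1.93 FPKM against 1.24, 1.08 and 1.27 FPKM (-0.81 ± 0.14, adjusted p = 0.0040). RFC3 and RFC4 belong to the small subunits shared by all clamp loaders, as does RFC2, the most abundant subunit in all 6 libraries, which fell from 14.2 ± 2.32 to 8.65 ± 0.371 FPKM (-0.70 ± 0.13, adjusted p = 0.0048). RFC5, a further small subunit, went from 4.85 ± 0.387 to 3.43 ± 0.525 FPKM (adjusted p = 0.023) and RFC1, the large subunit particular to the replicative loader, from 1.35 ± 0.289 to 0.879 ± 0.0412 FPKM (adjusted p = 0.042). The groups of all 6 genes were separate. The RFC5 call was lost without control replicate 1 or 2 or SF3B4 siRNA replicate 2 (adjusted p = 0.068, 0.056 and 0.058) and with no filter (0.069). The RFC1 call was lost in 8 of 13 alternatives, namely without any 1 library other than control replicate 2, with no filter, with quantile normalization and with the replicate block (adjusted p = 0.063 to 0.11).

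FEN1 and LIG1, which trim and seal Okazaki fragments, both fell. FEN1, the flap endonuclease, was at 40.8, 36.2 and 38.1 FPKM in control and at 20.4, 18.8 and 23.0 FPKM in SF3B4 siRNA libraries (-0.89 ± 0.09, adjusted p = 0.00049). LIG1, the ligase, was at 13.4, 13.3 and 14.1 FPKM against 10.9, 9.59 and 11.3 FPKM (-0.36 ± 0.09, adjusted p = 0.016). No library of one group reached the range of the other in either gene. The LIG1 call was lost without control replicate 3 (adjusted p = 0.056).

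Of the 3 subunits of RPA, RPA1 fell and the other two did not pass. RPA1, the large DNA-binding subunit, was at 23.4, 19.4 and 19.8 FPKM in control and at 13.7, 13.6 and 15.4 FPKM in SF3B4 siRNA libraries (-0.55 ± 0.10, adjusted p = 0.0046). RPA2, the subunit phosphorylated by checkpoint kinases, was at 15.1, 14.4 and 14.3 FPKM against 14.3, 13.1 and 13.3 FPKM (95% interval -0.27 to 0.06, adjusted p = 0.29). RPA3, the smallest subunit, was at 12.3, 11.6 and 10.8 FPKM against 13.2, 12.9 and 13.9 FPKM (95% interval 0.02 to 0.39, adjusted p = 0.083). RPA1 was thus separated downward and RPA3 upward, and the ratio of RPA1 to RPA3 was 1.80 ± 0.119 in control and 1.07 ± 0.0368 in SF3B4 siRNA libraries. RPA3 passed without control replicate 1 (adjusted p = 0.048), the 1 alternative of 14 in which any of the 46 genes was called higher.

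Of the 5 genes of deoxynucleotide supply, the 3 that encode ribonucleotide reductase and thymidylate synthase fell, and TK1 and DUT were lower in every SF3B4 siRNA library without passing the test. RRM1, the large subunit of ribonucleotide reductase, was at 3.99, 3.72 and 3.42 FPKM in control and at 2.30, 2.34 and 2.58 FPKM in SF3B4 siRNA libraries (-0.60 ± 0.10, adjusted p = 0.0041). RRM2, its S-phase subunit, was at 14.3, 13.2 and 14.7 FPKM against 9.46, 8.70 and 10.9 FPKM (-0.54 ± 0.10, adjusted p = 0.0054). The ratio of RRM2 to RRM1 was 3.82 ± 0.424 in control and 4.02 ± 0.262 in SF3B4 siRNA libraries, with overlapping groups (exact two-sided permutation p = 0.5). TYMS, which makes thymidylate, was at 30.6, 29.1 and 30.6 FPKM against 19.3, 15.5 and 20.3 FPKM (-0.72 ± 0.10, adjusted p = 0.0020). TK1, the salvage kinase and the most abundant of the 46, was at 174, 176 and 189 FPKM against 159, 117 and 158 FPKM (95% interval -0.61 to -0.05, adjusted p = 0.073). DUT, which removes dUTP, was at 6.41, 5.79 and 5.86 FPKM against 5.12, 4.05 and 5.24 FPKM (95% interval -0.60 to -0.05, adjusted p = 0.067). For both, SF3B4 siRNA replicate 2 was the lowest of all libraries. Other genes, mainly ENOSF1 on the opposite strand, cover 46.6% of the exonic bases of TYMS. AC007240.1 on the same strand, which has no value in these data, covers 20.2% of those of RRM2.

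Of the fork protection pair TIMELESS and TIPIN, whose proteins bind each other, TIMELESS fell and TIPIN did not pass. TIMELESS was at 17.7, 13.7 and 15.9 FPKM in control and at 9.05, 7.56 and 9.76 FPKM in SF3B4 siRNA libraries (-0.83 ± 0.13, adjusted p = 0.0026). TIPIN was at 1.02, 0.973 and 1.33 FPKM against 1.03, 1.02 and 1.35 FPKM (95% interval -0.37 to 0.43, adjusted p = 0.91), with overlapping groups. Its level rested on about 47.6 to 69.1 fragments per library. CLSPN, the mediator that hands the checkpoint signal to CHEK1, was below the filter at 1.28, 0.891 and 1.13 FPKM against 0.596, 0.539 and 0.427 FPKM, without overlap. It passed in the fit without a filter (log2 fold change -0.95, adjusted p = 0.023). POLA1, ORC5, GINS4 and ORC4, the other untested members, did not pass in that fit (adjusted p = 0.053, 0.14, 0.45 and 0.54).

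The 3 regulators tied to S phase fell. DTL, the substrate receptor of the ubiquitin ligase that destroys CDT1 on PCNA, was at 2.25, 1.98 and 2.04 FPKM in control and at 0.981, 0.948 and 1.05 FPKM in SF3B4 siRNA libraries (-1.0 ± 0.12, adjusted p = 0.00080). SLBP, which binds the stem-loop of histone mRNAs, was at 12.4, 11.6 and 12.5 FPKM against 8.27, 6.45 and 5.85 FPKM (-0.83 ± 0.13, adjusted p = 0.0026). UHRF1, which brings the maintenance DNA methyltransferase to new DNA, was at 3.42, 3.30 and 2.65 FPKM against 1.94, 1.53 and 2.02 FPKM (-0.74 ± 0.15, adjusted p = 0.0077). SLBP differed from most members in that SF3B4 siRNA replicate 3, not 2, was its lowest library.

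**Figure D3:**
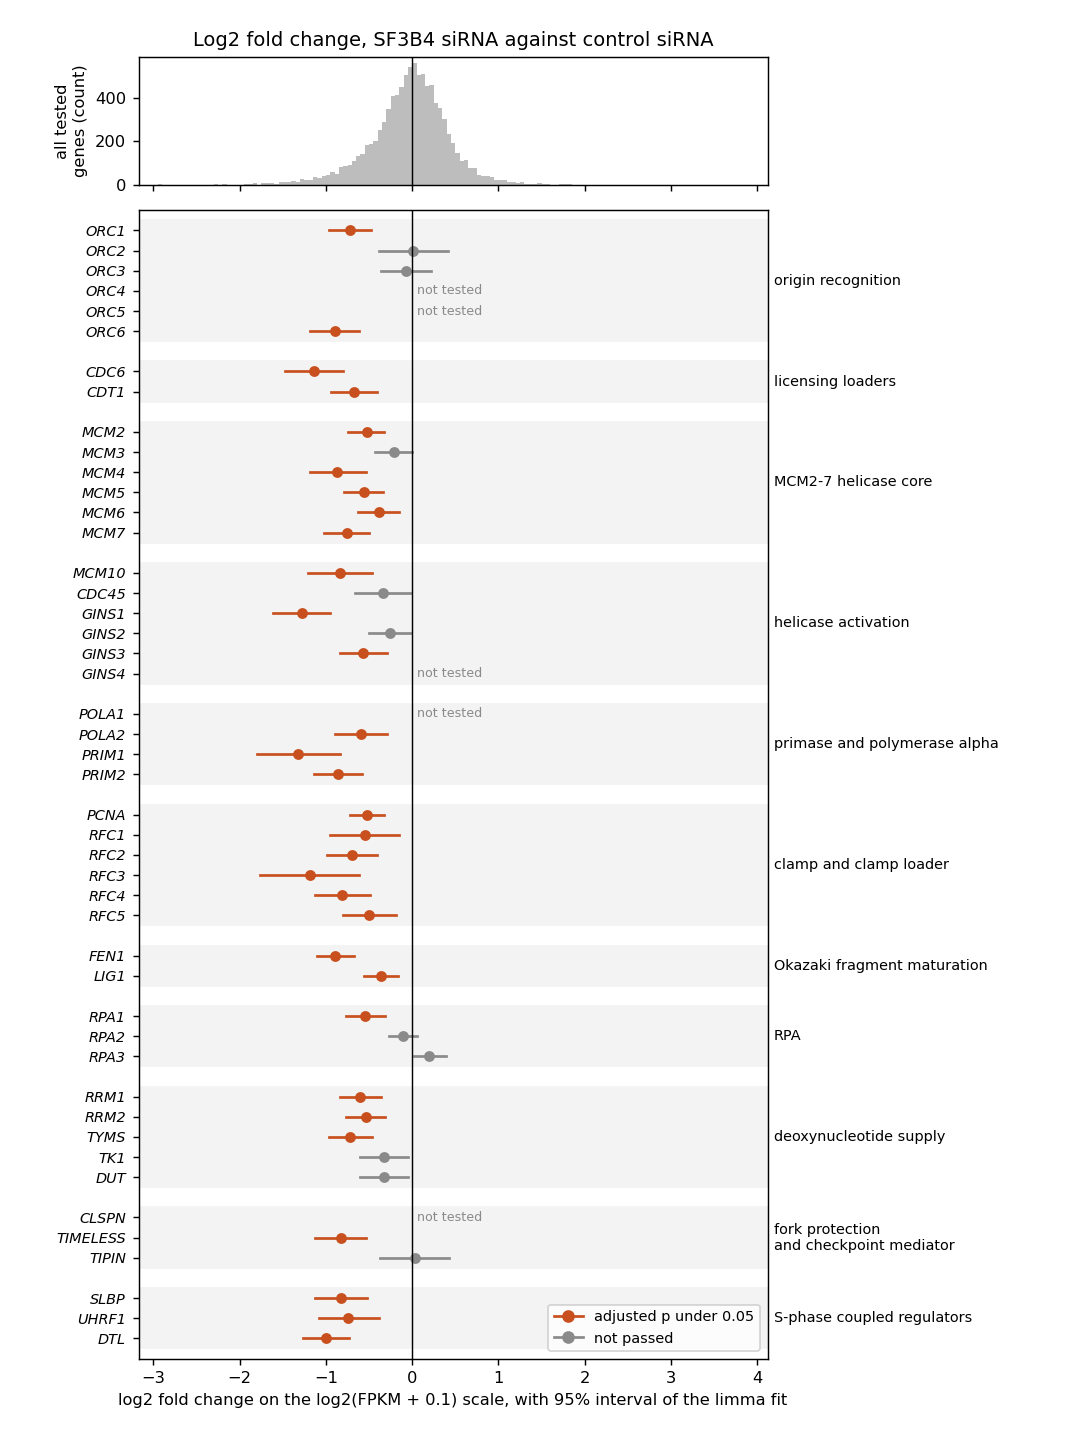
Log2 fold change of each tested gene with its 95% interval, grouped by replication step and orange where the adjusted p was under 0.05, below a histogram of all 9685 tested genes on the same axis. The 31 genes that fell lie between -1.32 and -0.36, and RPA3 at 0.20 is the point farthest to the right.

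Other genes of replication were taken from 7 lists of 113 genes in all, of which 88 were tested. Of these, 48 fell (54.5%) and 4 rose (DDB1, DGUOK, SHMT1 and POLD4), with a median log2 fold change of -0.34. Of all tested genes, 18.1% fell and 16.0% rose, which is also the background of the counts by list below. The DDB1 call was lost without control replicate 2 or SF3B4 siRNA replicate 1 or 2, and the SHMT1 call in 7 of 14 alternatives, 5 of which left out a library other than control replicate 3 (adjusted p up to 0.068 and 0.11). In the list of licensing control and origin firing, 7 of 11 fell and 1 rose. The 7 include DONSON, named after its values were seen, whose SF3B4 siRNA values were all under 1 FPKM. DONSON thus entered the test through its control libraries alone, and its call held in only 3 of 13 alternatives (adjusted p up to 0.14). SKP2, the F-box protein that marks CDT1 and p27 for destruction, fell from 2.21 ± 0.211 to 0.757 ± 0.213 FPKM, and entered the test through its control libraries alone, as every SF3B4 siRNA value was under 1 FPKM. TICRR, which helps load CDC45, fell from 2.91 ± 0.382 to 1.64 ± 0.0806 FPKM. MCMBP, a binding partner of the MCM subunits, fell from 9.84 ± 0.859 to 5.74 ± 0.35 FPKM, and GMNN, the inhibitor of CDT1, from 4.25 ± 0.332 to 2.70 ± 0.199 FPKM. Of 16 tested genes of fork accessory factors and chromatin assembly, 11 fell and 0 rose. They included the histone chaperones ASF1B (45.1 ± 2.27 to 21.3 ± 2.27 FPKM) and CHAF1B (6.79 ± 0.538 to 3.85 ± 0.651 FPKM), DSCC1 of an alternative clamp loader (1.93 ± 0.415 to 0.921 ± 0.16 FPKM) and topoisomerase TOP2A (6.43 ± 0.555 to 3.65 ± 0.58 FPKM). Adjusted p values of these 8 named genes that fell, SKP2 to TOP2A, were at most 0.0063. The lower call of SSRP1, of the fork accessory list and named after its values were seen, held in 8 of 14 alternatives (adjusted p up to 0.078).

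The replication checkpoint list had 2 of 7 tested genes lower and 0 higher. WEE1, the kinase that restrains CDK1 and CDK2, fell from 1.35 ± 0.276 to 0.507 ± 0.0534 FPKM, and ATRIP, the partner of ATR, from 4.39 ± 0.213 to 2.77 ± 0.353 FPKM (adjusted p = 0.0022 and 0.0047). WEE1 also entered the test through its control libraries alone. Nucleotide supply beyond the members was mixed, with 11 of 26 lower and 2 higher. DCK, the deoxycytidine salvage kinase, was at 2.84 ± 0.528 and 1.45 ± 0.35 FPKM. NUDT1, which removes oxidized nucleotides, was at 41.5 ± 1.65 and 23.5 ± 3.15 FPKM. CTPS1, a CTP synthase, was at 19.9 ± 1.45 and 12.6 ± 1.27 FPKM, and DCTPP1 at 19.4 ± 2.92 and 12.7 ± 0.882 FPKM, and all 4 fell (adjusted p at most 0.0093). The lower call of CAD, of the same list and named after its values were seen, held in 8 of 14 alternatives (adjusted p up to 0.094).

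In the list of E2F, pocket protein and S-phase cyclin genes, 6 of 12 tested fell and 0 rose. TFDP1, a DP partner of E2F proteins, fell from 9.12 ± 0.395 to 3.23 ± 0.208 FPKM (-1.47, adjusted p = 9.2e-05). TFDP2, another DP gene of the list and named after its values were seen, was too low to be tested. It was at 0.629 ± 0.0421 and 0.675 ± 0.0812 FPKM, with overlapping groups. CDK2 fell from 5.19 ± 0.525 to 1.88 ± 0.338 FPKM (-1.43, adjusted p = 0.00050). CDK1 and cyclin A2 (CCNA2) fell by 0.71 and 0.67 on the log2 scale (adjusted p = 0.0077 and 0.0064). E2F1 and CCNE1, named after their values were seen, did not pass, with 95% intervals of -0.06 to 0.52 and -0.36 to 0.11. The lower call of E2F2, named in the same way, held in 8 of 14 alternatives (adjusted p up to 0.1). Of the 7 tested genes of DNA polymerases delta and epsilon, 5 fell and 1 rose. Among them POLE4 was at 38.4 ± 5 and 6.78 ± 1.66 FPKM, POLD3 at 2.30 ± 0.184 and 1.35 ± 0.132, POLE at 5.70 ± 0.347 and 3.76 ± 0.262, and POLD4 at 4.14 ± 0.705 and 5.82 ± 0.357 FPKM. The POLD4 call was lost without control replicate 3 or SF3B4 siRNA replicate 1 or 2 and with no filter (adjusted p = 0.056 to 0.077). The lower calls of POLD1 and POLE3, named after their values were seen, held in only 5 and 7 of 14 alternatives (adjusted p up to 0.12 and 0.092). Division markers fell in 6 of 9 tested cases and rose in 0, with a median of -0.43. BUB1 was at 3.24 ± 0.364 and 2.01 ± 0.34 FPKM, CDC20 at 117 ± 6.43 and 86 ± 11.8 FPKM and TPX2 at 69.6 ± 4.39 and 51.6 ± 4.57 FPKM. KIF11, at 2.39 ± 0.414 and 1.49 ± 0.361 FPKM, lost its call in 6 of 13 alternatives, among them each omission of 1 library other than control replicate 2 or SF3B4 siRNA replicate 2 (adjusted p = 0.068 to 0.11). The PLK1 call was lost in 8 of 14 alternatives, among them each omission of 1 library other than SF3B4 siRNA replicate 1 or 3 (adjusted p up to 0.13). The CCNB1 call was lost in 6 of 14, among them each omission other than control replicate 2 or SF3B4 siRNA replicate 3 (adjusted p up to 0.083). PLK1 and CCNB1 were named after their values were seen. Lower division markers moved with the 46 genes, and their part in the result was not tested.

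**Figure D4:**
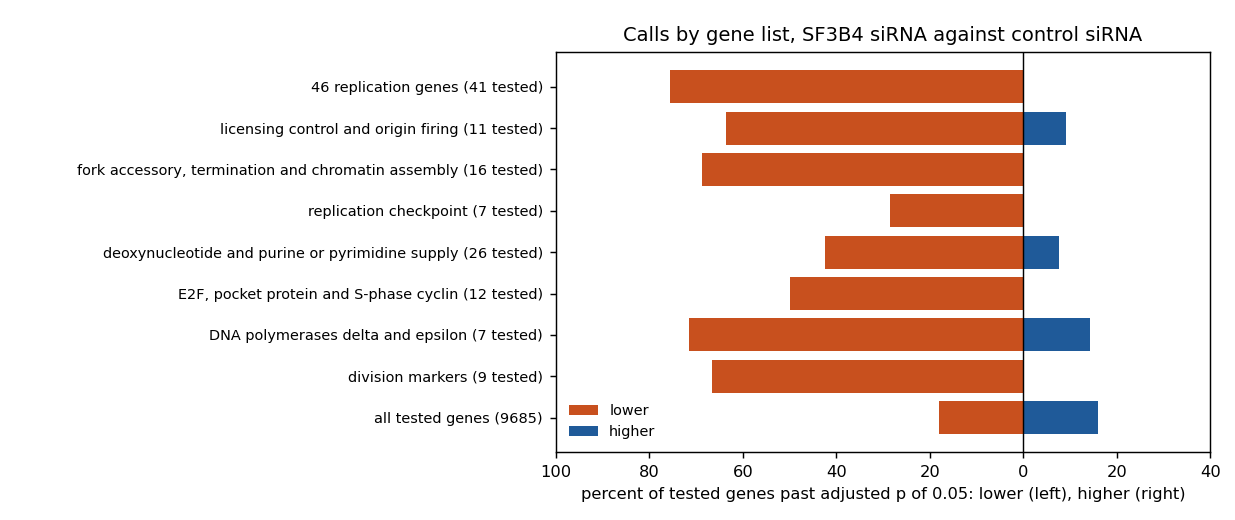
Percent of tested genes called lower (left, orange) or higher (right, blue) at an adjusted p of 0.05 for the 46 replication genes, the 7 other lists and all 9685 tested genes. The 46 genes reach 75.6% lower and 0 higher, the division markers 66.7% lower, and all tested genes 18.1% lower and 16.0% higher.

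In an earlier pass over these libraries, the 7-mers GCCTTCA and CCTTCAA were picked out of 3′ UTRs of genes that fell, so their presence is given here as a description. The longest 3′ UTR of each gene in GENCODE 29 was searched, taken over all its transcripts with a coding sequence. Such transcripts may stop early, so exons that code in another transcript could count as UTR, in the shares below too. Either 7-mer was present in 5 of the 31 members that fell (16.1%). It was present in 37.7% of all tested genes that fell and in 18.5% of those that did not. The 5 are CDT1, POLA2, PRIM1, RPA1 and RRM2. The POLA2 site spans an intron at chr11:65268712-65275898, far from the gene's 3′ end at 65305589. The sites that lie within 1 exon are printed with up to 9 bases on either side and the 7-mer, or the overlapping pair of 7-mers in PRIM1, in capitals (GRCh38, strand of the gene).
CDT1 (chr16:88809059-88809083, plus strand): catcacaggGCCTTCAtgacagggc
PRIM1 (chr12:56731663-56731688, minus strand): atatcttctGCCTTCAAccacagatc
RPA1, first site (chr17:1897421-1897445, plus strand): actccctctGCCTTCAggcttctgt
RPA1, second site (chr17:1898115-1898139, plus strand): aattaattaGCCTTCAtaataaatg
RRM2 (chr2:10130156-10130180, plus strand): gtgatctggGCCTTCAtatgtgtga

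The 26 other members that fell, among them GINS1, CDC6, RFC3, DTL and FEN1, held neither 7-mer in that UTR. The median log2 fold change was -0.59 in the members that fell with a site and -0.75 in those without. ORC5, which was not tested, holds CCTTCAA across an intron at chr7:104188362-104195147. ORC5 lies on the minus strand with its 3′ end at 104126341, so this site too is far from that end.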

How the data were processed

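Each of the 6 deposited tables holds a single library as FPKM values by gene, computed by the authors, per the file headers. Per the submitters' processing notes the tools were HISAT2 2.0.4 and StringTie 1.3.0 and the build GRCh38, with no role or order stated. The sources used here do not give the annotation, read layout or strand setting. Of the 50868 identifiers, 49659 had a symbol in a table of gene names and 50111 were found in GENCODE 29, which supplied lengths, overlaps and 3′ UTRs and may differ from the annotation the authors used. Count models were not used, because FPKM is a scaled unit. In genes with 1 exon, low values (up to 20 fragments) were whole fragment numbers to within 0.02 in 99.1% to 99.5% of cases, which gave the implied depth. Fragments per gene are FPKM times exonic length times that depth, an approximation, and their counting error comes on top of the spread between libraries.

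Genes that reached 1 FPKM in 3 or more of the 6 libraries were fitted with limma 3.58.1 in R 4.3.3 (intensity trend and robust option, two-sided, Benjamini-Hochberg over the 9685 tested genes, threshold 0.05) on log2(FPKM + 0.1). Fold changes are on that scale, which understates those of low genes. Levels are means ± SD of 3 libraries, and errors of log2 fold changes are SE. The fit was tested on simulated data for this comparison (9685 genes): it called 27 of 55 simulated 1.5-fold changes, 59 of 76 at 2-fold and 68 of 69 at 4-fold, and made 5 false calls. Changes were planted in these 55, 76 and 69 genes only, a far smaller share than the 18.1% and 16.0% called in the real libraries. The adjusted p cutoff depends on that share, so neither these rates nor the 5 false calls carry over to the real fit. The named pathway genes are up to 4 per list with the largest change past the threshold. The members and lists were chosen with earlier results of these data known. The alternatives were other pseudocounts, filters and scalings, a fit without trend and robust option, a replicate block, and leaving out each library.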

Additional observations from a re-analysis of the deposited data

How the results depend on the processing

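Of the 31 replication genes that fell, 27 passed in every alternative that tested them and all 31 kept their direction in all of them. The exceptions were MCM6, RFC1, RFC5 and LIG1. With a mean FPKM of at least 5, where 26 members were tested, 19 fell, beside 29 of the other pathway genes, 940 genes lower and 1027 higher overall. With no filter, 29 members were lower, and 2 rather than 4 other pathway genes were higher. Leaving out 1 library at a time gave 28 to 32 members lower and 0 to 1 higher, and 37 to 44 other pathway genes lower and 1 to 4 higher. The lowest count of higher pathway genes came without SF3B4 siRNA replicate 1 or 2. ORC2 and TIPIN, never past the threshold, changed sign when a library was left out, with log2 fold changes of -0.09 to 0.16 for both. Pseudocounts of 1 and 0.01, TPM rescaling, and the fit without trend and robust option left 31 members lower, and quantile normalization 30. The median of all tested genes moved by at most 0.03 between scalings. Replicate numbers did not pair the samples: same-numbered libraries had correlations of -0.08, 0.0243 and -0.118 between their deviations from the group means. With the replicate block, 31 members were lower and 0 higher, RFC1 losing and CDC45 gaining its call, 1537 genes were lower and 1290 higher, and not every library correlated best with its own number. Depth limits ORC2, ORC3, ORC4, ORC5, GINS4, POLA1, PRIM1, CLSPN and TIPIN, which held at most about 126.5 fragments in any library. Other members that fell were as shallow in the SF3B4 siRNA libraries. Among them, RFC3 held about 36 to 61.3 fragments there, RFC4 58.4 to 70.6, ORC6 83.3 to 93.8 and DTL 84.4 to 95.5.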
